A study of Mus musculus with 9 samples.

Results

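Kidneys of mice whose podocytes carried a Ybx1 protein that cannot be secreted (K2A) were compared with kidneys of mice whose podocytes lacked Ybx1 (ΔPod). The comparison used 3 K2A and 3 ΔPod libraries, 6 of the 9 libraries in the study, joined by gene symbol over 52160 symbols. The K2A mice had a Ybx1 mutant with both K299A and K302A, described by the labels as specific to podocytes, and the ΔPod mice a deletion of Ybx1 from podocytes. The remaining 3 libraries came from wild-type (WT) mice. All mice were on a C57Bl/6N background and 16 weeks old, and RNA was taken from whole kidney. The promoter that confines the deletion or the mutant to podocytes, the other alleles of each genotype and the sex of the mice are not given in the sources used here. The labels number the libraries within a group but do not state that each came from a separate mouse, so p-values measure the spread between libraries, which may be technical.

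Ybx1 encodes Y-box binding protein 1, a cold shock domain protein that binds RNA and DNA, regulates transcription and translation, and can leave the cell by a non-classical route. Released Ybx1 can act on neighbouring cells, and acetylation of lysines near its C terminus is needed for its release. Podocytes are the epithelial cells that cover the glomerular capillaries and form the slit diaphragm of the kidney filter. In ΔPod mice these cells are meant to make no Ybx1, whereas in K2A mice they make a Ybx1 that is not released. The direct comparison therefore asks whether kidneys differ according to whether podocytes lack all Ybx1 or lack its secretion.

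The site that sets the K2A protein apart lies in exon 7 of the Ybx1 gene, in the part of the transcript that encodes the C-terminal domain. The reference sequence of codons 295 to 306 is shown because it holds both changed residues (mm10, chr4:119279016-119279051, minus strand, GENCODE vM21). Capitals mark the codons of lysines 299 and 302, which the mutant replaces with alanine.

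Ybx1 codons 295 to 306, wild-type reference: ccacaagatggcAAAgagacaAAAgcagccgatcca

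A change of a few bases within these codons leaves the gene's read count in place, so gene counts do not show which allele was transcribed. Ybx1 (chromosome 4, 119277981 to 119294604) was measured at 1167, 881 and 605 CPM (read counts relative to the TMM-scaled library total) in the 3 ΔPod libraries. The K2A libraries gave 1078, 1152 and 554 CPM and the WT libraries 1190, 1585 and 1185 CPM. The K2A and ΔPod values overlapped, and the lowest value of each genotype was its library 3. The log2 fold change of K2A over ΔPod was 0.07 (SE 0.38, 95% interval -0.79 to 0.93, unadjusted p = 0.857). Deletion in podocytes alone would remove a small part of this signal, since most kidney cells transcribe Ybx1, so these values check the genotype labels weakly. The related cold shock genes Ybx2 and Ybx3 had log2 fold changes of 0.45 and 0.49 (unadjusted p = 0.156 and 0.125). Of 12 tested genes in the list of cold shock proteins and RNA-binding partners of Ybx1, 0 had an unadjusted p under 0.05 (2.01% of all genes had). The median log2 fold change of the list was 0.11.

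The 9 libraries held 30777142 to 46882253 counts. Within the 6 mutant libraries the first principal component took 81.76% of the variance and set library 3 of both genotypes apart from the other four. In ΔPod 3 and K2A 3, as in WT 1 and WT 3, long transcripts had relatively higher counts, and cytosolic ribosomal protein genes took 1.1% and 0.97% of the counts, against 7.64% and 4.14% in ΔPod 1 and ΔPod 2 and 3.71% and 3.79% in K2A 1 and K2A 2. This length class was therefore present once in library 3 of each mutant genotype. Markers of proximal tubule and thick ascending limb had counts in every library, as whole kidney should give, and the 4 podocyte markers summed here (Nphs1, Wt1, Podxl and Synpo) did too.

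Of 18067 genes tested, 0 (0.0%) differed between K2A and ΔPod in the edgeR quasi-likelihood test at an adjusted p under 0.05, and the smallest adjusted p was 0.574. An unadjusted p under 0.05 was reached by 364 genes (2.01%), of which 245 (1.36%) were higher in K2A and 119 (0.659%) lower. With the replicate number as a block in a fit of the 6 mutant libraries, 9 genes (0.051%) were called (Wdfy1, Wnt7b, Bcat1, Fkbp5, Zbtb16, Psca and Smt3h2-ps higher in K2A, Gm16867 and Gm13453 lower). The labels state no such pairs, and libraries with other numbers deviated together as well. The same block over all 9 libraries called 0 genes, so adjusted p values with the block are given below with this limit. With DESeq2 19 genes (0.105%) were called. Without K2A 3 the edgeR test called 2 genes, Aldh1a3 and Cldn11. In 924 genes (5.11%) the K2A and ΔPod libraries did not overlap, with K2A higher in 634 (3.51%) and lower in 290 (1.61%). Without any difference between groups, an unadjusted p under 0.05 has a probability of 0.05. Non-overlap of 3 against 3 libraries then has a probability of 0.1. The shares of 2.01% and 5.11% were below these, so neither shows an excess in this fit. The count at an unadjusted p under 0.05 depended on the fit, so an excess cannot be judged from it. With each library's slope of counts against transcript length as a covariate it was 3658 of 18067. Length class as a term gave 1441 of 18067. In the 6 mutant libraries it was 1092 of 17662 with the replicate block and 154 of 17662 without it. The absence of calls is not a statement that the genotypes were alike. The median width of the 95% interval was 2.33 log2 units, and the interval lay within a 2-fold change in either direction (-1 to 1 on the log2 scale) for 3842 genes (21.3%). A wider margin of -2 to 2 held the interval of 13122 genes (72.6%). Over all genes tested the log2 fold changes had a median of -0.013. The genes described below are those with the smallest p values among non-overlapping genes, and members of chosen gene lists; none passed the adjusted test, and their values are given as measured differences.

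**Figure D1:**
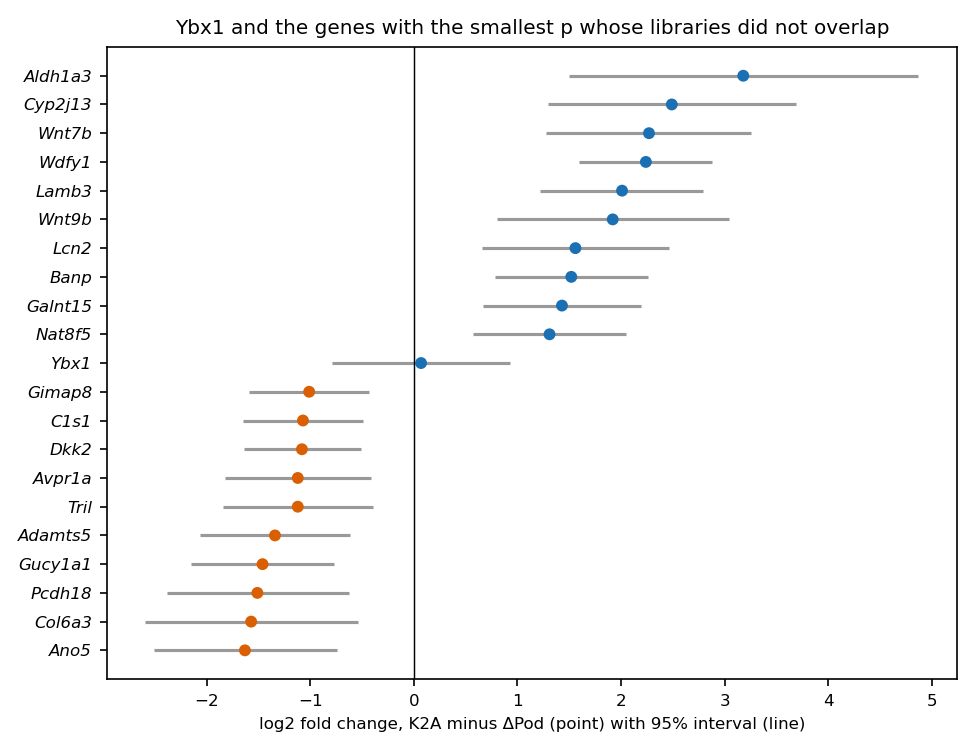
Log2 fold change of K2A over ΔPod (x axis, points) with the 95% interval (lines) for Ybx1 and for 10 higher and 10 lower genes. These had the smallest p among genes without overlap and with log2 CPM averaging at least 1 over all 9 libraries, WT included. The interval of Ybx1 crosses 0 (-0.79 to 0.93), while the 20 others, chosen for their small p, run from -1.63 to 3.18.

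The 10 higher genes were Wdfy1, Lamb3, Wnt7b, Wnt9b, Aldh1a3, Lcn2, Cyp2j13, Banp, Galnt15 and Nat8f5. The smallest p was that of Wdfy1 (chromosome 1, 79702262 to 79776143), which encodes an endosomal protein with a FYVE domain that takes part in Toll-like receptor signalling. Wdfy1 was measured at 7.56, 8.39 and 8.26 CPM in ΔPod and at 28.9, 50.4 and 34.8 CPM in K2A, against 66.9 to 72.2 CPM in WT. Every K2A library lay above every ΔPod library and below every WT library. The log2 fold change of K2A over ΔPod was 2.24 (SE 0.28, 95% interval 1.59 to 2.88, adjusted p = 0.574; adjusted p = 0.0203 with the replicate block). Against WT, the log2 fold change was -3.12 in ΔPod, which passed the edgeR test (adjusted p = 0.00555), and -0.88 in K2A, which did not (adjusted p = 0.241). For this and other genes, differences of either genotype from WT cannot be told apart from the sex-linked pattern described below. Wdfy1 is also on the list of genes whose level varies between C57BL/6 substrains, which is described further below.

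Wnt7b and Wnt9b, which encode Wnt ligands of the collecting duct lineage, both had higher values in K2A. Wnt7b (chromosome 15, 85535437 to 85582473) was measured at 3.29, 5.74 and 3.02 CPM in ΔPod, at 21.8, 23.9 and 12.3 CPM in K2A and at 15.1, 7.87 and 8.85 CPM in WT. The WT libraries lay above ΔPod and ran from below the K2A range into it. The log2 fold change of K2A over ΔPod was 2.27 (SE 0.43, 95% interval 1.28 to 3.25, unadjusted p = 0.000609; adjusted p = 0.0215 with the replicate block). Wnt9b was measured at 2.24, 3.61 and 2.26 CPM in ΔPod and at 13.9, 10.8 and 5.98 CPM in K2A, a log2 fold change of 1.92 (SE 0.49, unadjusted p = 0.00385), with WT at 1.6 to 4.41 CPM. For both ligands K2A 3 was the lowest of the K2A libraries and still above every ΔPod library.

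Lamb3 (chromosome 1, 193207699 to 193343878) encodes the beta chain of laminin-332, a protein of epithelial basement membranes. It was measured at 1.12, 1.2 and 0.685 CPM in ΔPod and at 3.66, 5.13 and 3.27 CPM in K2A, with WT between the genotypes at 1.89 to 2.47 CPM. The log2 fold change was 2.01 (SE 0.34, 95% interval 1.22 to 2.79, unadjusted p = 0.0003). Aldh1a3, which encodes an enzyme that makes retinoic acid, had the largest log2 fold change of the 10 higher genes at 3.18 (SE 0.74, 95% interval 1.5 to 4.87, unadjusted p = 0.00223). Its K2A values were 10.9, 13.8 and 1.26 CPM, and its ΔPod values were 0.868, 0.867 and 1.11 CPM. The difference thus came from K2A 1 and K2A 2, with K2A 3 just above ΔPod 3, and without K2A 3 Aldh1a3 was called (log2 fold change 3.68, adjusted p = 0.0397).

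The other 5 higher genes were Lcn2, Cyp2j13, Banp, Galnt15 and Nat8f5. Banp, which encodes a nuclear DNA-binding protein, was measured at 4.81, 7.22 and 7.48 CPM in ΔPod and at 18.3, 21.2 and 16.4 CPM in K2A, which lay around the WT values of 11.3 to 19.8 CPM. Galnt15, of the family that starts O-linked glycosylation, was measured at 2.64, 2.58 and 3.65 CPM in ΔPod and at 6.54, 6.28 and 11.1 CPM in K2A. Nat8f5, of the N-acetyltransferase 8 family, was measured at 2.39, 1.78 and 1.71 CPM in ΔPod and at 4.71, 4.56 and 5.28 CPM in K2A. The Nat8f5 values of both genotypes were far below the 19.4 to 38.8 CPM of WT, and both differences from WT passed the edgeR test (log2 fold change -3.97 in ΔPod, adjusted p = 0.0051, and -2.66 in K2A, adjusted p = 0.0151). The log2 fold changes of K2A over ΔPod were 1.52 for Banp, 1.43 for Galnt15 and 1.31 for Nat8f5. Reads of Nat8f5 and Cyp2j13 may be shared with close relatives in their gene clusters, so their values are uncertain.

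**Figure D2:**
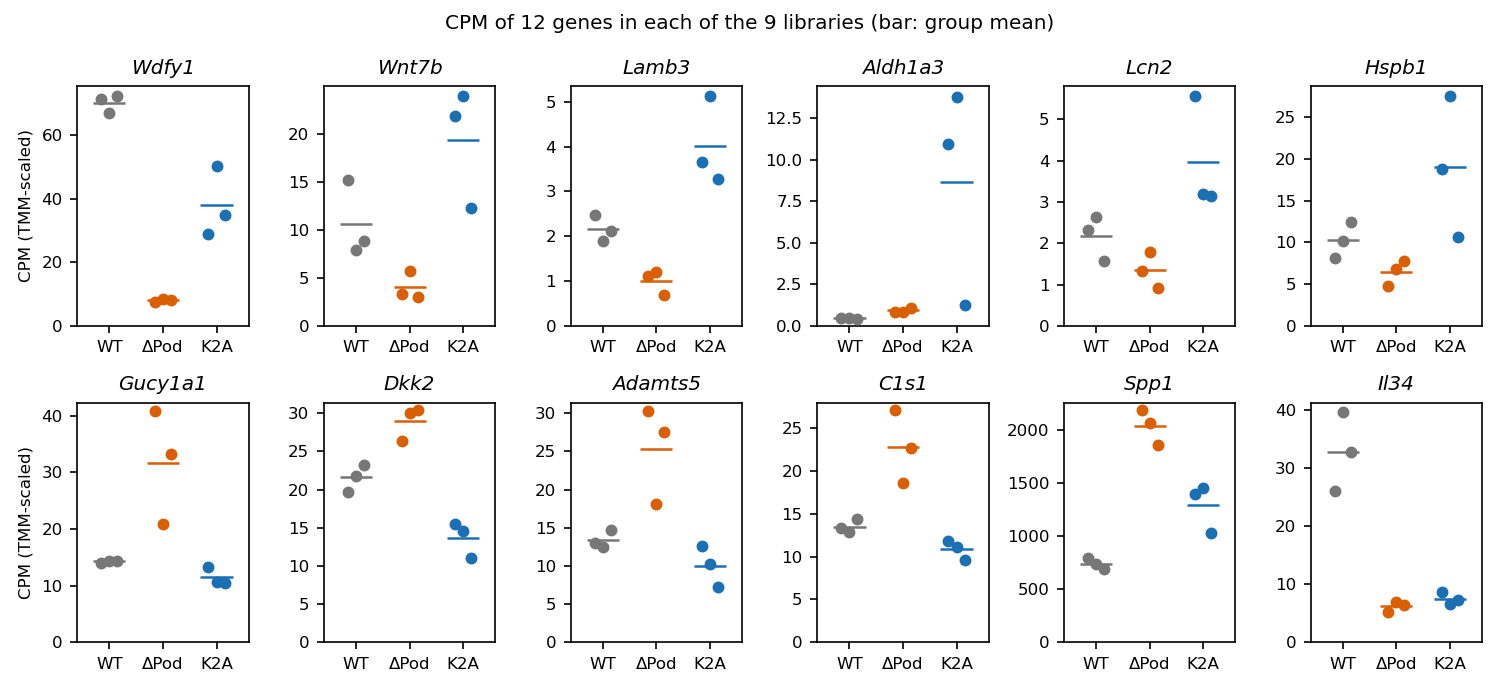
CPM (y axis, linear, from 0) of 12 genes in the 9 libraries, with a point for each library and a bar for the group mean (grey WT, orange ΔPod, blue K2A). In the upper row all K2A libraries lie above all ΔPod libraries, and K2A 3 of Aldh1a3 (1.26 CPM) is close to ΔPod; in the lower row Gucy1a1, Dkk2, Adamts5, C1s1 and Spp1 lie lower in K2A, whereas Il34 overlaps.

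The 10 lower genes were Gucy1a1, Dkk2, Adamts5, C1s1, Ano5, Gimap8, Pcdh18, Avpr1a, Tril and Col6a3. Gucy1a1 (chromosome 3, 82092427 to 82145789) encodes the alpha subunit of soluble guanylate cyclase, the receptor for nitric oxide. It was measured at 40.8, 20.9 and 33.2 CPM in ΔPod and at 13.3, 10.7 and 10.5 CPM in K2A, with WT at 14.1 to 14.4 CPM. The ΔPod libraries thus lay above WT and the K2A libraries below it. The log2 fold change of K2A over ΔPod was -1.46 (SE 0.30, 95% interval -2.15 to -0.77, unadjusted p = 0.00108). Gucy1b1, the gene of the beta subunit, was measured at 12.1, 9.64 and 9.98 CPM in ΔPod and at 7.5, 7.08 and 6.56 CPM in K2A (log2 fold change -0.59, unadjusted p = 0.0422), and this partner gene was named after its values were seen.

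Dkk2 (chromosome 3, 132085292 to 132180304), which encodes a secreted Wnt inhibitor of the Dickkopf family, was measured at 26.4, 30.0 and 30.4 CPM in ΔPod. Its values were 15.4, 14.6 and 11.0 CPM in K2A and 19.7 to 23.2 CPM in WT, so the 3 groups did not overlap. The log2 fold change was -1.08 (SE 0.25, 95% interval -1.64 to -0.51, unadjusted p = 0.00207). Adamts5, the gene of a proteoglycan-cleaving metalloprotease, was measured at 30.2, 18.1 and 27.5 CPM in ΔPod and at 12.6, 10.2 and 7.26 CPM in K2A (log2 fold change -1.34, unadjusted p = 0.00245). C1s1, the gene of the complement protease C1s, was measured at 27.1, 18.5 and 22.7 CPM in ΔPod and at 11.8, 11.1 and 9.63 CPM in K2A (log2 fold change -1.07, unadjusted p = 0.0025). For Gucy1a1, Dkk2 and C1s1 every ΔPod library lay above and every K2A library below the WT range.

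The remaining 6 lower genes were Ano5, Gimap8, Pcdh18, Avpr1a, Tril and Col6a3, with log2 fold changes from -1.63 to -1.01. Gimap8, of a GTPase family expressed in lymphocytes and endothelium, was measured at 31, 28.6 and 21.3 CPM in ΔPod and at 14.8, 13.4 and 12 CPM in K2A, both above the WT range of 6.96 to 7.76 CPM. Its difference from WT passed the edgeR test in ΔPod (log2 fold change 1.85, adjusted p = 0.017) and not in K2A (0.85, adjusted p = 0.233). Avpr1a, which encodes the V1a vasopressin receptor, was measured at 10.5, 15.2 and 19.3 CPM in ΔPod and at 7.72, 6.67 and 6.34 CPM in K2A. The ΔPod values of Avpr1a overlapped WT and the K2A values lay below it. Tril, whose protein binds Toll-like receptor 4, was measured at 20.9, 14.2 and 23.3 CPM in ΔPod and at 10.1, 8.39 and 8.47 CPM in K2A.

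Members of the matrix and fibrosis list were mostly lower in K2A. Of 21 tested members 18 had a negative log2 fold change and 3 a positive one, with a median of -0.53, and an unadjusted p under 0.05 was reached by 2, both lower (0.659% of all genes were). These were Col6a3, the gene of a type VI collagen chain, and Fbn1, the gene of the microfibril protein fibrillin-1. Col6a3 was measured at 26.3, 9.78 and 16.5 CPM in ΔPod and at 7.07, 4.98 and 5.66 CPM in K2A, and Fbn1 at 13.0, 7.53 and 10.3 CPM against 5.86, 3.88 and 5.95 CPM. The fibrillar collagen gene Col3a1 was measured at 79.4, 35.4 and 24.7 CPM in ΔPod and at 25.9, 20.8 and 4.77 CPM in K2A, with overlap (log2 fold change -1.44, 95% interval -2.89 to 0.01, unadjusted p = 0.0516). Col1a1 and Col1a2 had log2 fold changes of -0.73 and -0.64 with intervals of -2.51 to 1.05 and -1.85 to 0.56, and both were named after their values were seen. The median of the list ran from -0.76 to -0.02 when each of the 6 libraries was left out in turn, the latter without ΔPod 3.

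In each of the mesangial, endothelial and smooth muscle lists 1 member had an unadjusted p under 0.05, and all 3 were lower in K2A (0.659% of all genes were). Itga8, which encodes an integrin of mesangial and stromal cells, was measured at 27.7, 13.9 and 18.6 CPM in ΔPod and at 10.4, 9.81 and 7.57 CPM in K2A. Fbln5, which encodes the elastic fibre protein fibulin-5, was measured at 120, 104 and 193 CPM against 78.3, 68.5 and 68.4 CPM. Synpo2, which encodes an actin-binding protein of smooth muscle, was measured at 4.99, 4.74 and 9.67 CPM against 3.04, 1.96 and 2.86 CPM. Their log2 fold changes were -1.11, -0.95 and -1.31. The lists that hold them had medians near that of all genes, at -0.07 for mesangial and stromal markers (13 tested), 0.09 for endothelial markers (15 tested) and -0.03 for smooth muscle of ureter and vessels (9 tested), and with 1 library left out they ran from -0.19 to 0.32, from -0.36 to 0.86 and from -0.34 to 0.41.

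The podocyte genes Nphs1 and Wt1 overlapped between the genotypes. Nphs1, which encodes the slit diaphragm protein nephrin, was measured at 3.83, 8.44 and 53.3 CPM in ΔPod and at 9.73, 8.33 and 40.9 CPM in K2A. Library 3 was the highest in both genotypes, and the log2 fold change was -0.15 with a 95% interval of -2.45 to 2.14. Wt1, a transcription factor gene of mature podocytes, had the same order of libraries, at 2.13, 4.81 and 21.7 CPM in ΔPod and 4.71, 4.59 and 18.5 CPM in K2A (log2 fold change -0.04, 95% interval -2.05 to 1.96). The intervals of both genes were wide, and each held differences of 2-fold in either direction. The sum of the 4 podocyte markers was 47.6, 111 and 594 CPM in ΔPod and 99.3, 91.7 and 476 CPM in K2A. Of 21 tested podocyte genes 1, Pla2r1, had an unadjusted p under 0.05 and was lower in K2A (0.659% of all genes were). Pla2r1 encodes a receptor for secreted phospholipase A2. It was measured at 8.93, 6.17 and 8.06 CPM in ΔPod and at 4.37, 4.09 and 4.84 CPM in K2A (log2 fold change -0.80, without overlap). The median of the list was -0.15 and ran from -1.3 without K2A 3 to 0.98 without ΔPod 3. In whole-kidney RNA fewer cells of a type and less RNA per cell cannot be told apart.

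In the principal cell list of the collecting duct 2 of 12 tested members had an unadjusted p under 0.05, both higher in K2A (1.36% of all genes were). Elf5, a transcription factor gene of principal cells, was measured at 1.77, 2.04 and 0.786 CPM in ΔPod and at 9.48, 11.4 and 2.2 CPM in K2A. Aqp2, the gene of the vasopressin-regulated water channel, was measured at 190, 230 and 321 CPM in ΔPod and at 654, 609 and 339 CPM in K2A. Both were higher in every K2A library, with log2 fold changes of 2.33 (unadjusted p = 0.00652) and 1.11 (unadjusted p = 0.0232), and for both the gap was small between K2A 3 and the highest ΔPod library. The 12 tested principal cell genes had a median log2 fold change of 0.18, which ran from -0.31 without K2A 3 to 1.06 without ΔPod 3. Proximal tubule genes had a median of 0.01 (24 tested, -0.37 to 0.38 over the same fits), thick limb and distal tubule genes -0.05 (17 tested, -0.49 to 0.84) and intercalated cell genes -0.14 (13 tested, -0.73 to 0.69). These medians thus depended on library 3 of either genotype. In these 3 lists the potassium channel gene Kcnj1 was the only member with an unadjusted p under 0.05 (log2 fold change -0.77, unadjusted p = 0.0469). Over all genes 0.659% were lower at that threshold.

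Innate sensing genes were compared because extracellular Ybx1 is known as a ligand of receptors on immune and epithelial cells. Of 15 tested Toll-like receptor and adaptor genes and 17 inflammasome and interleukin-1 genes, 0 had an unadjusted p under 0.05 (2.01% of all genes had). In lists of this size a count of 0 is near that share. The medians were 0.02 and -0.07. Tlr4, the receptor gene for lipopolysaccharide, was measured at 4.63, 4.13 and 3.2 CPM in ΔPod and at 4.8, 4.24 and 2.47 CPM in K2A. Its log2 fold change was -0.06 with a 95% interval of -0.82 to 0.71, which leaves out a 2-fold difference in either direction. The inflammasome sensor gene Nlrp3 and the protease gene Casp1 had log2 fold changes of 0.26 and 0.03, with wider intervals of -1.16 to 1.67 and -1.10 to 1.16. Il1b, the gene of interleukin-1 beta, was measured at 3.07, 3.24 and 2.72 CPM in ΔPod and at 1.8, 2.22 and 0.436 CPM in K2A. Its libraries did not overlap, but the spread among K2A libraries was wide, and the difference had an unadjusted p of 0.126 (log2 fold change -1.02). Il18 had a log2 fold change of -0.34 (95% interval -1.53 to 0.86).

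Neutrophil calprotectin genes had the largest negative log2 fold changes in the myeloid list, at low levels. S100a9 was measured at 3.36, 1.15 and 1.01 CPM in ΔPod and at 0.279, 0.207 and 0.29 CPM in K2A, a log2 fold change of -2.80 (SE 0.70, unadjusted p = 0.00355). S100a8 was measured at 3.11, 0.727 and 0.725 CPM against 0.093, 0.474 and 0.169 CPM, a log2 fold change of -2.60 (unadjusted p = 0.0214). No other member of the 16 tested myeloid genes had an unadjusted p under 0.05 (0.659% of all genes were lower at that threshold), and the median was -0.19. Lymphocyte genes (15 tested) had a median of -0.19 and interferon response genes (29 tested) a median of -0.11. Either list had 0 members at an unadjusted p under 0.05 (2.01% of all genes were in either direction).

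The tubular injury list went in both directions. Lcn2, whose protein (lipocalin-2) is released by injured tubules, was measured at 1.34, 1.78 and 0.927 CPM in ΔPod and at 5.58, 3.2 and 3.15 CPM in K2A (log2 fold change 1.56, SE 0.40, unadjusted p = 0.00374). The keratin genes Krt8 and Krt18 were also higher in K2A, with log2 fold changes of 0.75 (unadjusted p = 0.0093) and 0.98 (unadjusted p = 0.0113). Krt8 was measured at 45.9, 55.3 and 55.9 CPM in ΔPod and at 83.8, 93.0 and 87.1 CPM in K2A, inside or close to the WT range of 78.3 to 88.6 CPM. Spp1, the gene of the secreted matrix protein osteopontin, was lower in K2A: it was measured at 2187, 2066 and 1860 CPM in ΔPod and at 1397, 1453 and 1029 CPM in K2A. Its log2 fold change was -0.66 (SE 0.26, unadjusted p = 0.0328), and all 6 values lay above the WT range of 692 to 794 CPM. Havcr1, which encodes kidney injury molecule 1, overlapped between the genotypes, with 4.56, 4.22 and 0.0202 CPM in ΔPod and 4.25, 1.84 and 0.266 CPM in K2A. Of 26 tested members 15 were higher and 11 lower in K2A, and the median was 0.20. The cytokine gene Il34, a ligand of the macrophage growth factor receptor, was measured at 5.24, 7.01 and 6.45 CPM in ΔPod and at 8.68, 6.67 and 7.33 CPM in K2A, a log2 fold change of 0.28 (95% interval -0.34 to 0.90), with WT at 26.1 to 39.6 CPM.

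Heat shock proteins, the chaperones made under proteotoxic stress, were higher in K2A for 12 of 16 tested members, with a median log2 fold change of 0.28 that ran from 0.11 without K2A 3 to 0.56 without ΔPod 3. An unadjusted p under 0.05 was reached by 3, all higher, where 1.36% of all genes were. Hspb1 was measured at 4.77, 6.75 and 7.8 CPM in ΔPod and at 18.8, 27.6 and 10.6 CPM in K2A (log2 fold change 1.56, SE 0.40, unadjusted p = 0.00402). Hspa1b was measured at 4.7, 4.24 and 8.87 CPM against 9.73, 19.7 and 23.3 CPM (log2 fold change 1.56, SE 0.64, unadjusted p = 0.0374). Both genes lay higher in every K2A library than in any ΔPod library. Cryab, a small heat shock protein gene, was measured at 90.1, 118 and 50.9 CPM in ΔPod and at 331, 422 and 82.7 CPM in K2A, so that K2A 3 lay within the ΔPod range (log2 fold change 1.69, unadjusted p = 0.0182). Copies share reads here: the pseudogene Hsp25-ps1 resembles Hspb1 and had a log2 fold change of 1.63, and Hspa1a is nearly identical to Hspa1b and had one of 0.95 (unadjusted p = 0.275).

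The promoter windows of Hspb1 and Hspa1b are shown because both genes did not overlap between the genotypes and belong to the family whose promoters bind heat shock factor. Each window runs from 250 bases before to 50 after the start of the gene (RefSeq, GRCm38.p6), and capitals mark each match to the motif GAANNTTC, which reads the same on both strands.

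Hspb1, chr5:135887669-135887968, plus strand: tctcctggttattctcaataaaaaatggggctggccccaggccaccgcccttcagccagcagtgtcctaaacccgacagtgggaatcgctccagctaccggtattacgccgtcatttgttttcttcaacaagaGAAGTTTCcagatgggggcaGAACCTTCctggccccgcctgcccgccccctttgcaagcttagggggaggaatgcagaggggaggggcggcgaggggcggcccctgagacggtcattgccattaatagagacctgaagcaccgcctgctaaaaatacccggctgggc
Hspa1b, chr17:34959189-34959488, minus strand: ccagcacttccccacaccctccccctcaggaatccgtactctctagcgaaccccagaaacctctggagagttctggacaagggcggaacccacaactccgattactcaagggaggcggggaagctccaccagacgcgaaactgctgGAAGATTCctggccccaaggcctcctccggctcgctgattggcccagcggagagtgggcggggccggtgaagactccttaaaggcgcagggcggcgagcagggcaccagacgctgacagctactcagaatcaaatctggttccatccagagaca

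The Hspb1 window held 2 matches and the Hspa1b window 1. The motif was found in 9 of the 12 heat shock genes with a window (75.0%), in 7.31% of the 12316 tested genes with a window and in 7.86% of all 32851 windows. A match describes letters in the window and is not a measured binding site.

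In 3 other stress lists few members reached an unadjusted p under 0.05. The unfolded protein and integrated stress response had 2 higher and 1 lower. The hypoxia response had 1 higher, and NRF2 targets had 0 (1.36% of all genes were higher and 0.659% lower). In the hypoxia list 3 members were higher without overlap (3.51% of all genes were). Chac1, of the first list, had a log2 fold change of 1.02 (unadjusted p = 0.0415), with overlap. Xbp1, a transcription factor gene of the unfolded protein response, was measured at 110, 138 and 118 CPM in ΔPod and at 253, 270 and 167 CPM in K2A (log2 fold change 0.91, unadjusted p = 0.00925). Atf3, a stress-induced transcription factor gene, was lower in K2A at 3.29, 2.93 and 2.59 CPM against 5.71, 4.71 and 6.83 CPM (log2 fold change -0.97, unadjusted p = 0.0222). Both separated the genotypes without overlap, in opposite directions. Car9, a carbonic anhydrase gene induced by hypoxia, had a log2 fold change of 0.93 (unadjusted p = 0.0319). Cdkn1a, which encodes the cell cycle inhibitor p21 and is on the cell cycle list, had one of 1.09 (unadjusted p = 0.00797). The medians were 0.10 for the unfolded protein and integrated stress response (20 tested), 0.19 for NRF2 targets (17 tested) and 0.08 for the hypoxia response (16 tested).

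**Figure D3:**
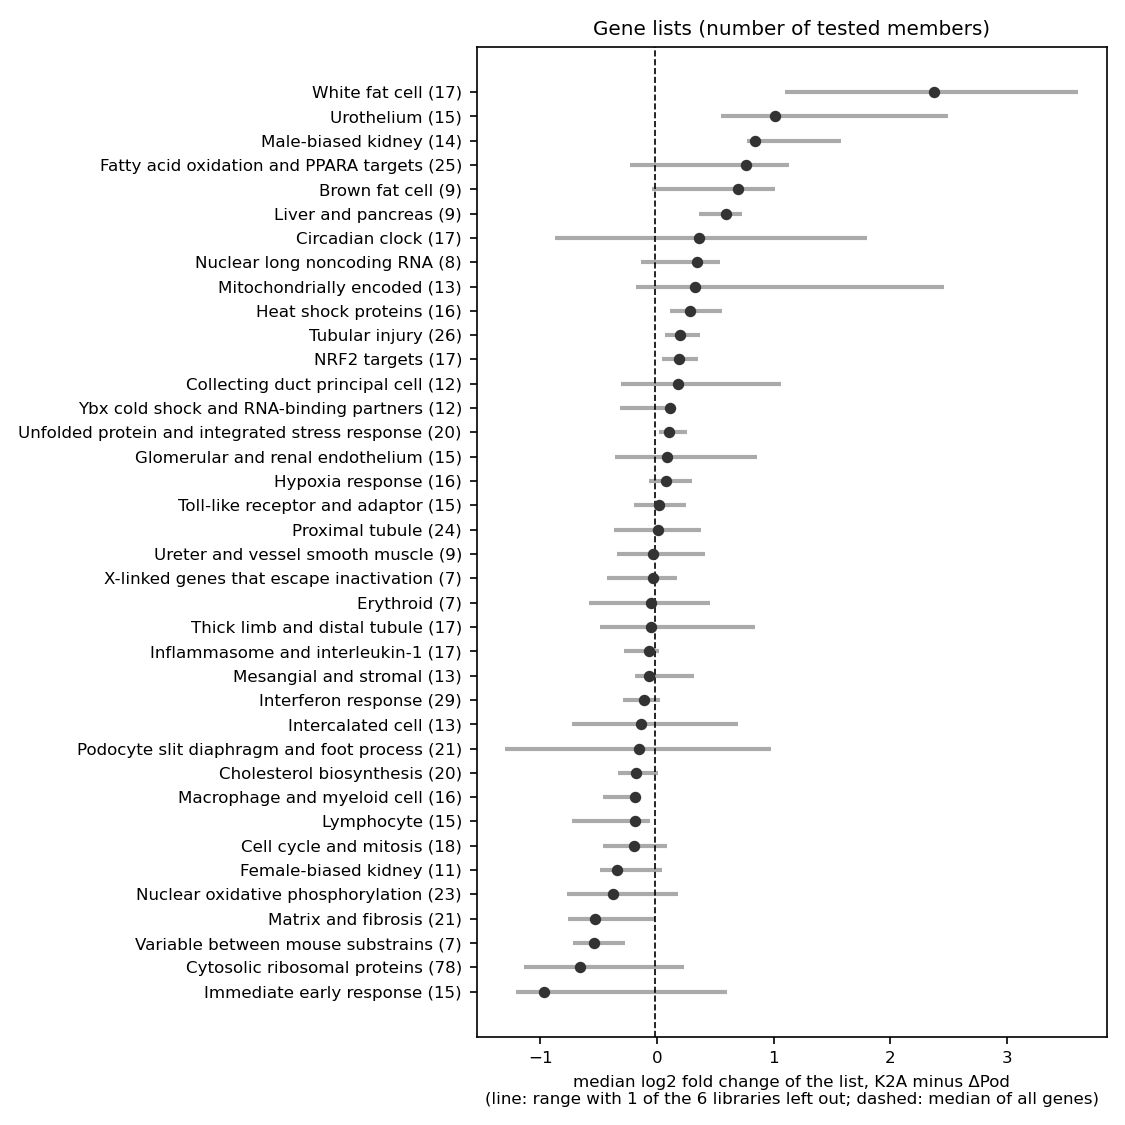
Median log2 fold change of K2A over ΔPod (x axis, points) for gene lists with at least 5 tested members (number in brackets), with lines from the lowest to the highest median when each of the 6 mutant libraries was left out in turn. White fat is the highest at 2.37 and the immediate early response the lowest at -0.97, and the line of the second crosses the median of all genes (dashed).

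White fat cell genes had the largest list median. Of 17 tested members 16 were higher in K2A, the median log2 fold change was 2.37, and 4 had an unadjusted p under 0.05, all higher (1.36% of all genes were). These were Plin4, Pparg, Cidec and Trarg1, whereas Adipoq and Cfd had an unadjusted p of 0.307 and 0.283. Plin4, with the smallest p (0.00682, unadjusted), was highest in K2A 3, at 21.2 CPM against 1.33 and 2.96 CPM in K2A 1 and K2A 2. It thus did not follow the marker sum below. The median was 1.1 without K2A 2 and 3.61 without ΔPod 1. The sum of 6 defining markers (Adipoq, Cfd, Lep, Retn, Plin1 and Cidec) was 115, 6.54 and 0.383 CPM in ΔPod and 200, 532 and 2.81 CPM in K2A, with WT at 0.229 to 0.395 CPM. The sum was high in ΔPod 1, K2A 1 and K2A 2, and libraries within each genotype lay far apart. Adipoq, the adiponectin gene, and Lep were at 0 in ΔPod 3, and Adipoq, Lep and Retn in K2A 3. Adipoq had a 95% interval of -2.60 to 7.34 around a log2 fold change of 2.37. Cidec, the gene of a lipid droplet protein, was measured at 6.08, 1.13 and 0.262 CPM in ΔPod and at 17.8, 53.4 and 2.49 CPM in K2A (log2 fold change 3.32, unadjusted p = 0.03).

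Urothelial markers put the libraries of each genotype in the same order as the fat markers did. The sum of 5 defining urothelial markers was 40.5, 8.56 and 0.484 CPM in ΔPod and 41.5, 53.5 and 5.64 CPM in K2A, with 3 markers (Upk2, Upk3a and Krt5) at 0 in ΔPod 3 and WT at 4.55 to 8.21 CPM. Of 15 tested urothelial genes 14 were higher in K2A, and the log2 fold changes had a median of 1.01 (2.49 without ΔPod 1 and 0.55 without ΔPod 3). Of the 15, 0 were at an unadjusted p under 0.05 (2.01% of all genes were). Several genes named above as higher in K2A had the same order of K2A libraries, with K2A 1 and K2A 2 above K2A 3 (Aldh1a3, Elf5, Krt18, Cryab, Hspb1 and Wnt7b). With the mean of the white fat list as a covariate, the log2 fold change was 1.55 for Aldh1a3, 1.11 for Elf5, 0.61 for Krt18 and 0.52 for Cryab, each more than 1.5 times smaller than without it. It was 1.15 for Hspb1 and 1.87 for Wnt7b, and all 6 kept their sign. The 6 genes were chosen for an order of K2A libraries that the covariate shares, and the white fat list was itself higher in K2A. Smaller values were therefore likely in advance, and they are given as a description only. Whether urothelium collected with the kidney takes part in these values was not tested.

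**Figure D4:**
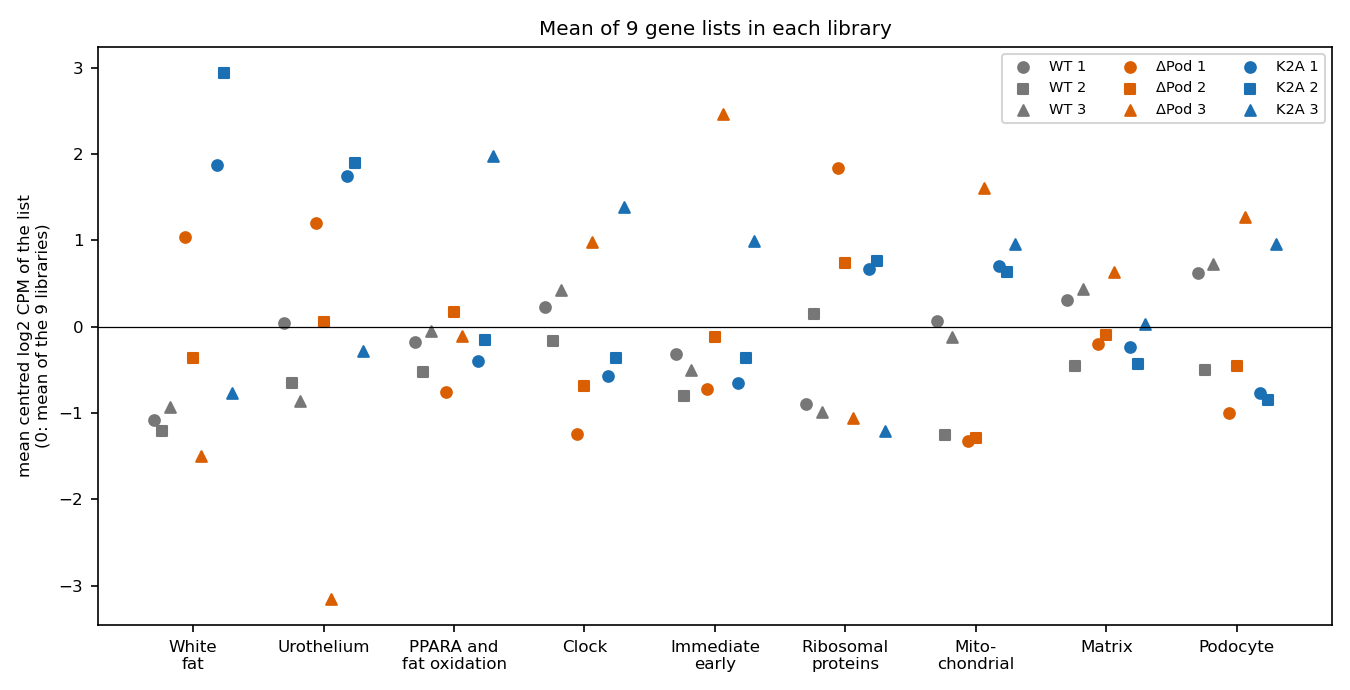
Mean centred log2 CPM of 9 gene lists (y axis, 0 is the mean of the 9 libraries) in each library (grey WT, orange ΔPod, blue K2A; circle, square and triangle for libraries 1, 2 and 3). White fat and urothelium are high in ΔPod 1, K2A 1 and K2A 2, the immediate early list is highest in ΔPod 3 and PPARA targets in K2A 3, while podocyte markers are high in library 3 of both mutants and in WT 1 and WT 3.

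Fatty acid oxidation and PPARA target genes were higher in K2A for 24 of 25 tested members, and the median log2 fold change was 0.76, with K2A 3 far above the others for several of them. Plin2, which encodes a coat protein of lipid droplets, was measured at 35.2, 53.3 and 67.6 CPM in ΔPod and at 60.7, 73.7 and 215 CPM in K2A (log2 fold change 1.16, unadjusted p = 0.0462). Cyp4a10 and Cyp4a14 encode fatty acid hydroxylases, and as close relatives they may share reads. Cyp4a10 was measured at 41.1, 160 and 393 CPM in ΔPod and at 118, 132 and 2858 CPM in K2A. Cyp4a14 was measured at 96.9, 270 and 396 CPM in ΔPod and at 152, 161 and 4782 CPM in K2A. K2A 1 and K2A 2 lay within the ΔPod range for both hydroxylase genes. The log2 fold changes were 2.39 for Cyp4a10 (unadjusted p = 0.0961) and 2.74 for Cyp4a14 (unadjusted p = 0.0644). Without K2A 3 the median of the list was -0.23. The glucocorticoid-responsive genes Fkbp5 and Zbtb16 were likewise highest in K2A 3, at 199 and 24.1 CPM, against 24.7 and 30.8 CPM and 6.32 and 5.34 CPM in K2A 1 and K2A 2. Zbtb16 lay at 0.0723, 0.61 and 2.32 CPM in ΔPod, below every K2A library, and Fkbp5 at 4.12, 9.56 and 34 CPM, with overlap. With the replicate block in the 6 mutant libraries both were called (adjusted p = 0.0183 for Zbtb16 and 0.0215 for Fkbp5), as they were with the length slope as a covariate.

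Immediate early genes, which are switched on within minutes of a stimulus, were lower in K2A for 14 of 15 tested members, with a median log2 fold change of -0.97. Fos was measured at 0.47, 0.774 and 48.4 CPM in ΔPod and at 0.279, 0.356 and 6.07 CPM in K2A, and Egr1 at 0.868, 2.37 and 165 CPM against 0.465, 1.33 and 21.9 CPM. Both genes were high in library 3 of either genotype and low in the other libraries. Their intervals covered 0 widely, from -6.96 to 1.2 for Fos and from -7.26 to 1.62 for Egr1. Leaving out 1 of the 6 libraries at a time moved the list median between -1.21 and 0.60, the latter without ΔPod 3. Circadian clock genes also varied by library, with Dbp at 105 CPM in ΔPod 3 and 183 CPM in K2A 3 against 10.6 to 25.3 CPM in the other 4 mutant libraries.

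Cytosolic ribosomal protein genes, which are short, were lower in K2A for 73 of 78 tested members. The log2 fold changes had a median of -0.66, and 0 were at an unadjusted p under 0.05 (2.01% of all genes were). Without ΔPod 1, the library with the highest ribosomal protein share, the median was 0.23. Mitochondrially encoded genes took 1.59%, 1.8% and 11.5% of the counts in ΔPod and 7.31%, 7.05% and 8.81% in K2A, so that ΔPod 1 and ΔPod 2 lay below all K2A libraries and ΔPod 3 above them. Their median log2 fold change was 0.33, and 2.46 without ΔPod 3. Of 13 tested members 1, the 12S ribosomal RNA gene mt-Rnr1, had an unadjusted p under 0.05 and was higher in K2A (1.36% of all genes were). The mt-Rnr1 values were 2004, 1634 and 2838 CPM in ΔPod and 6504, 6719.6 and 1882 CPM in K2A. Its high values were those of K2A 1 and K2A 2. The part of these shares in other differences was not tested. With length class as a term in the fit 0 genes were called, while with a covariate for the library's slope of counts against transcript length 33 genes (0.183%) were called.

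Male-biased kidney genes were lower in every mutant library than the WT mean, to very different degrees. Kap, an androgen-regulated gene of the proximal tubule, was at 14.5% to 63.6% of the WT mean in the 6 mutant libraries and Cndp2, a dipeptidase gene, at 6.83% to 13.1%, whereas the genes described next were at under 3% of it. The list includes the 4 Y-linked genes. Of 14 tested members 12 were higher in K2A than in ΔPod, and the median log2 fold change was 0.84 (0.77 to 1.58 with 1 library left out, 1.58 without ΔPod 3). An unadjusted p under 0.05 was reached by 6 (1.36% of all genes were): Ddx3y, Eif2s3y, Uty, Slco1a1, Cyp2j13 and Cyp7b1. Ddx3y, Eif2s3y, Uty and Slco1a1 had few or no counts in most mutant libraries and entered the test through WT. The count of 6 is thus not comparable with the share of all genes. Y-linked transcripts (Kdm5d, Uty, Ddx3y and Eif2s3y) had 0 counts in all 3 ΔPod libraries, which allows up to 0.025 CPM in that group, and together 22, 8 and 0 counts in K2A 1, K2A 2 and K2A 3. These sums were 0.649%, 0.226% and 0% of the WT mean. Slco1a1, a male-biased transporter gene, was measured at 0.145, 0.0938 and 0.0806 CPM in ΔPod and at 4.68, 1.36 and 0 CPM in K2A, against 374 to 537 CPM in WT. The K2A libraries were in the same order for Slco1a1 as for the Y-linked genes. Cyp2j13, a cytochrome P450 gene, was measured at 0.217, 0.375 and 0.242 CPM in ΔPod and at 2.88, 0.889 and 1.02 CPM in K2A (log2 fold change 2.49, SE 0.52, unadjusted p = 0.00116), against 319 to 487 CPM in WT. Its K2A values were 0.682%, 0.21% and 0.241% of the WT mean, and its ΔPod values 0.0514%, 0.0888% and 0.0572%. In K2A 1 and K2A 2 these were close to the Y-linked sums, whereas in K2A 3 Cyp2j13 lay above the Y-linked sum of 0%. Cyp7b1, an oxysterol hydroxylase gene, was measured at 1.7, 1.73 and 2.7 CPM in ΔPod and at 3.56, 2.96 and 5.32 CPM in K2A (log2 fold change 0.95, unadjusted p = 0.0175).

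Xist, the transcript that coats the inactive X chromosome, was measured at 17.0, 18.8 and 124 CPM in ΔPod and at 30.9, 30.6 and 331 CPM in K2A, and was at 0 in every WT library. The sex-linked transcripts thus separated both mutant genotypes from WT and did not separate the mutants from each other beyond the trace counts described. Female-biased kidney genes (11 tested) had a median log2 fold change of -0.34 between K2A and ΔPod, with 0 at an unadjusted p under 0.05 (2.01% of all genes were). For K2A and ΔPod against WT, genotype and the sex-linked pattern cannot be told apart; the direct comparison sets libraries side by side that share that pattern.

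**Figure D5:**
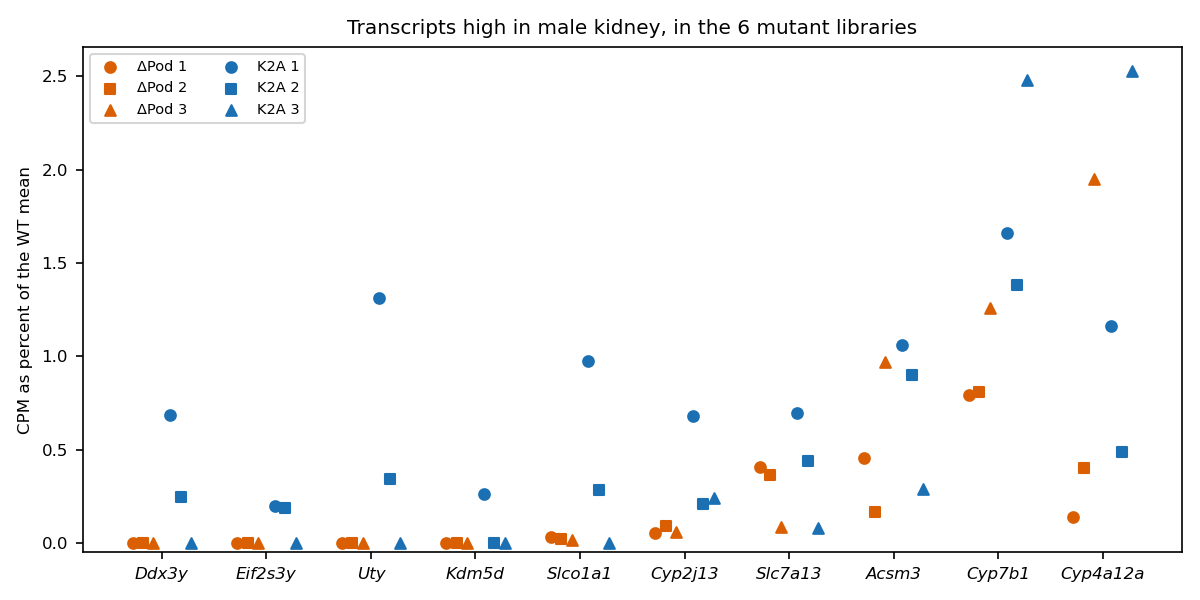
CPM as a percent of the WT mean (y axis, linear) for 4 Y-linked and 6 male-biased kidney genes in the 6 mutant libraries (orange ΔPod, blue K2A; circle, square and triangle for libraries 1, 2 and 3). Kap, Cndp2, Cyp2e1 and Slc22a30, which were less reduced, are not drawn. The Y-linked genes are at 0 in all ΔPod libraries and in K2A 3, and the sum of the 4 reaches 0.649% of the WT mean in K2A 1.

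Genes that vary between C57BL/6 substrains were compared because the genetic background can differ between mouse lines. Of 7 tested members, Wdfy1 was higher in K2A, and Entpd4 and Crb1 were lower, all at an unadjusted p under 0.05 (1.36% of all genes were higher and 0.659% lower). Entpd4, the gene of a Golgi nucleotidase, was measured at 2.97, 4.08 and 4.51 CPM in ΔPod and at 1.92, 3.05 and 2.08 CPM in K2A, against 10.6 to 13.8 CPM in WT (log2 fold change of K2A over ΔPod -0.71, unadjusted p = 0.0454). Crb1, a cell polarity gene whose retinal degeneration allele is carried by C57BL/6N, was measured at 0.362, 0.445 and 1.63 CPM in ΔPod and at 0.062, 0.326 and 0.145 CPM in K2A. Gm16867 (chromosome 14, 69363504 to 69503362), a predicted gene that overlaps the end of Entpd4 (69337174 to 69367270) on the other strand, was measured at 3.0, 1.17 and 1.01 CPM in ΔPod. It was at 0.062, 0 and 0.0484 CPM in K2A and at 1.11 to 1.49 CPM in WT, so ΔPod was around or above the WT level and K2A near 0. Its log2 fold change was -5.41 (SE 0.78, unadjusted p = 8.51e-05; adjusted p = 0.0183 with the replicate block), and because the strand setting of the counting is not stated, reads of Gm16867 and Entpd4 may not be told apart where they overlap. Whether substrain background takes part in the Wdfy1 difference was not tested. Around the Ybx1 gene itself, 135 genes within 5 megabases on either side were tested. At an unadjusted p under 0.05, 1 was higher in K2A and 0 were lower (1.36% and 0.659% of all genes were), so these genes showed no excess. The 1 gene was Mycl (log2 fold change 1.07, unadjusted p = 0.0243).

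The genes called for either genotype against WT gave the following values in the direct comparison. ΔPod differed from WT in 178 genes (0.985%), 72 higher (0.399%) and 106 lower (0.587%). K2A differed from WT in 153 genes (0.847%), 58 higher (0.321%) and 95 lower (0.526%). Both sets include sex-linked and male-biased genes such as Eif2s3y and Cyp2j13. For these sets, genotype and the sex-linked pattern that separated both mutants from WT cannot be told apart. Both sets share the WT libraries with each other and the ΔPod or K2A libraries with the direct comparison. Of the 178 genes, 0 were called between K2A and ΔPod, 20 were higher and 5 lower in K2A at an unadjusted p under 0.05 (1.36% and 0.659% of all genes were), and the median absolute log2 fold change was 0.426 between the genotypes against 3.131 from WT. Of the 153 genes, 0 were called, 15 were higher and 8 lower, and the medians were 0.393 and 3.052. The 95% interval lay within -1 to 1 for 41 of the 178 and 40 of the 153. Genes called against WT were chosen with the same ΔPod or K2A libraries, so these counts and medians are a description.

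Individual genes of these sets show the range of the K2A minus ΔPod interval. Slc17a2, a phosphate transporter family gene, was measured at 27.9, 29.1 and 12.4 CPM in ΔPod and at 20.6, 14.1 and 19.9 CPM in K2A, against 0.124 to 0.229 CPM in WT. Its log2 fold change between the genotypes was -0.35 (95% interval -1.22 to 0.53), and the libraries overlapped. Slc7a12, an amino acid transporter gene, was measured at 272, 258 and 148 CPM in ΔPod and at 148, 131 and 114 CPM in K2A (log2 fold change -0.78, 95% interval -1.64 to 0.07). Hdc, the gene of histidine decarboxylase, which makes histamine, was measured at 13.1, 56.4 and 175 CPM in ΔPod and at 39.5, 19.0 and 16.2 CPM in K2A (log2 fold change -1.71, 95% interval -3.51 to 0.09). Slc7a13, a proximal tubule amino acid transporter gene, was measured at 4.38, 3.89 and 0.907 CPM in ΔPod and at 7.44, 4.68 and 0.871 CPM in K2A, against 996 to 1116 CPM in WT. Both genotypes overlapped for Slc7a13, with library 3 the lowest of each (log2 fold change 0.50, 95% interval -1.21 to 2.22). Fabp1, which encodes liver fatty acid binding protein, was measured at 13.6, 13.3 and 3.28 CPM in ΔPod and at 5.11, 7.44 and 41.3 CPM in K2A, where K2A 3 was again the highest (log2 fold change 0.83, 95% interval -1.01 to 2.68).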

How the data were processed

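RNA from whole kidney was sequenced in 9 libraries after selection of polyadenylated RNA on oligo-dT beads and ScriptSeq v2 preparation, per the labels' protocols. The authors deposited raw counts per gene symbol in separate tables for each genotype with WT, 52182 and 52169 symbols, of which 52163 were shared; 3 with unequal WT counts were left out. The submitters' processing notes name STAR 2.7.3a, featureCounts 2.0.1, DESeq2 1.30.0 and mm10; strand setting and multi-mapped reads are not given in the sources used here. Counts were fitted with edgeR 4.0.16 in R 4.3.3 (filterByExpr, TMM, quasi-likelihood test, all 9 libraries, group term, Benjamini-Hochberg at 0.05). Intervals are 95% intervals of the log2 fold change from that fit. The common biological coefficient of variation was 53.1%. A group without counts was given a floor of 3 counts, a limit for counting error alone. With 3 against 3 libraries an exact permutation test reaches 0.1 at the lowest, and it was left out.

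Named genes were a fixed set of kidney, innate sensing and sex-linked genes. Up to 4 members of each of 39 lists, by smallest p, were added. Since fewer than 10 genes passed in either direction, the 10 higher and 10 lower genes with the smallest p were added too. These had libraries without overlap and log2 CPM averaging at least 1 over all 9 libraries, WT included, and predicted genes were excluded. A gene could thus pass through the group where it was high. Cyp2j13 passed through WT (mean 422.6 CPM, against 0.278 in ΔPod and 1.596 in K2A). Aldh1a3 passed through K2A (8.66 CPM, against 0.948 in ΔPod and 0.4673 in WT) and Ano5 through ΔPod (3.585 CPM, against 1.158 in K2A and 1.321 in WT). A further part of the rule named genes called with length class as a term, of which there were 0. Others (Gucy1b1, Gm16867, Col1a1, Aqp2, Hsp25-ps1, Fkbp5, Zbtb16, Cyp4a14 and Dbp among them) were chosen after their values were seen. The comparison, members and lists were chosen with earlier results of these data known, and no list was tested as a set. Samples with the same replicate number deviated together from their group means (correlations 0.76, 0.403 and 0.85, each over 0.1), though K2A 2 with ΔPod 1 (0.774) and K2A 1 with ΔPod 2 (0.443) did too; the pairing comes from these values, not the labels. Alternatives were other scaling, filters, DESeq2 1.42.0, limma 3.58.1 (voom), the replicate block, length and fat covariates and leaving out libraries. The edgeR step was run on simulated counts with the same dispersion for every gene and no length class. That run does not show how the test behaves with library differences like those here. Coordinates came from GENCODE vM21, where 17599 tested symbols (97.4%) had a unique match, and promoters from RefSeq. Some genes are not individually reported here.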

Additional observations from a re-analysis of the deposited data

How the results depend on the processing

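No gene was called, as in the edgeR test above, with RLE, upper-quartile or library-size scaling, robust dispersion, either other filter, the 6 mutant libraries alone, the replicate block over 9 libraries, mitochondrial genes left out, length class as a term, the fat covariate, or, chosen after seeing the data, limma-voom without sample weights and length class in the 6 mutant libraries. Genes were called with the replicate block in the 6 mutant libraries (9, with 7 higher in K2A), with the length slope as a covariate (33), with DESeq2 (19), with limma-voom and sample weights (5060) and without K2A 3 and ΔPod 3 together (2, Aldh1a3 and mt-Tl2; chosen after seeing the data). Unadjusted p under 0.05 ran from 154 genes in the 6 libraries alone to 7385 with voom weights; it was 6703 with the fat covariate. The voom weights ran from 0.0826 for K2A 3 to 11.6 for ΔPod 2, so that fit rests on few libraries. Leaving out each of the 9 libraries gave 0 to 2 calls, the 2 without K2A 3. The cause of the other changes was not tested. A direction was followed for the 65 of 218 named genes with an unadjusted p under 0.05. Of 5846 alternative values of the named genes, 5649 kept their side of the threshold, and 197 passed it. The sign stayed for these 65 genes and turned in 197 values of 71 genes whose unadjusted p was at least 0.05, among them Adipoq (-2.88 with the fat covariate), Cyp4a14 and Cyp4a10 (-0.72 and -0.68 without K2A 3) and Fos and Egr1 (1.85 and 2.3 without ΔPod 3). Genes below about 1 CPM, such as S100a9 and Crb1, rest on few counts.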

Other observations

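Some genes were called under other analyses though not in the edgeR test of the report. These analyses refit the same libraries, so a call under several of them is not independent. Of 43 genes called by DESeq2, with the length slope or with the replicate block in the 6 mutant libraries, 14 were called by at least 2 of these and 4 by all 3 (Wdfy1, Wnt7b, Gm16867 and Gm13453). Bcat1, which encodes the cytosolic branched-chain aminotransferase, was measured at 9.11, 3.68 and 2.62 CPM in ΔPod and at 31.2, 18.7 and 10.5 CPM in K2A, with WT at 22.5 to 38.9 CPM. Every K2A library of Bcat1 lay above every ΔPod library (log2 fold change 1.97, SE 0.57, unadjusted p = 0.0079; adjusted p = 0.0243 with the replicate block).

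Gm13453, a processed pseudogene on chromosome 2 (40127504 to 40127860), was measured at 220, 89.1 and 16.7 CPM in ΔPod and at 12.2, 12 and 4.72 CPM in K2A, with WT at 4.47 to 10.05 CPM. Its ΔPod libraries differed widely and all lay above the K2A libraries, and reads of a pseudogene can come from its parent gene. Psca, which encodes a surface antigen of urothelium and other epithelia, was measured at 9.66, 5.06 and 0.121 CPM in ΔPod and at 37.3, 50.7 and 3.65 CPM in K2A, an order of libraries like that of the urothelial markers. Idi1 and Serpina1a were called only with limma-voom and sample weights, the fit that rests on few libraries. Idi1, a cholesterol synthesis gene, was measured at 13.4, 7.85 and 4.21 CPM in ΔPod and at 3.6, 5.16 and 2.47 CPM in K2A, where K2A 2 lay above ΔPod 3. Serpina1a, which encodes an alpha-1-antitrypsin of liver, was measured at 0.76, 1.24 and 0.584 CPM in ΔPod and at 1.58, 2.82 and 1.31 CPM in K2A, against 16.1 to 22.9 CPM in WT.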
